A study of Mus musculus with 4 samples.

Results

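The genes described here are 10 genes of FGF and ERK signalling in mouse ESCs, namely feedback targets and the ligand gene Fgf4. The targets are the Sprouty genes Spry2 and Spry4, the Sprouty-related genes Spred1 and Spred2 and the dual-specificity phosphatase genes Dusp4, Dusp5 and Dusp6. The transcription factor genes Etv4 and Etv5 are counted with them. All 10 genes were chosen by name, with earlier results of these data known, out of the 55335 genes in the deposited tables. RNA-seq of the mouse ESC line AB2.2, which was kept on feeder fibroblasts from mouse embryos, gave 2 control libraries and 2 libraries of cells given 50 mM lactate for 24 h. Cells of both groups grew in 15% serum with 1000 U/ml LIF and the inhibitors CHIR99021 (3 μM) and PD0325901 (1 μM). PD0325901 blocks MEK, the kinase directly upstream of ERK, so both groups were measured in the presence of a MEK inhibitor, and cells without it were not analysed here. The labels do not say whether the libraries of a group came from separate cultures, so the p-values measure the spread between these libraries only.

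FGF4 is made by ESCs themselves and acts on FGF receptors, from which the signal passes through GRB2, SOS and RAS to the kinases RAF, MEK and ERK. Active ERK switches on genes whose products hold the same pathway back. Sprouty and SPRED proteins act near the receptor and RAS, and DUSP4, DUSP5 and DUSP6 remove the activating phosphates from ERK itself. ETV4 and ETV5 are ETS transcription factors whose genes follow FGF signalling closely. In ESCs this pathway favours exit from the naive state, which is why a MEK inhibitor is part of naive culture medium.

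Reads counted on genes ranged from 18067562 to 19077885 per library. Mitochondrial genes took 5.48% and 5.72% of them in the libraries numbered 1 and 2.43% and 2.82% in those numbered 2. The ESC markers had reads in every library, with a sum of 4564 to 4878 CPM (reads scaled by library size and TMM factor) over 8 genes in control and 4882 to 5695 CPM in lactate libraries. Markers of the feeder fibroblasts were present too, and their sum over 14 genes was 472 to 671 CPM in control and 466 to 529 CPM in lactate libraries. The 10 markers of primitive endoderm, a lineage that FGF signalling promotes, summed to 201 to 238 CPM in control and 304 to 315 CPM in lactate libraries. No marker of these lists was at 0 in either group. In bulk RNA, more cells of a type and more RNA per cell cannot be told apart, and the part of feeder or endoderm cells in the values below was not tested.

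Lactate and control libraries were compared with edgeR's quasi-likelihood test on the raw counts of all genes, and genes past 2-fold whose adjusted p was under 0.05 were called. All 10 genes were among the 18661 that passed the filter on low counts. Spry2 and Spry4 were called as higher with lactate, 2 of 10 against 0.552% of all tested genes. As the 10 were chosen with earlier results known, the shares of all tested genes are given for scale only. None of the 10 was called as lower by edgeR or DESeq2, which called 0.348% and 0.868% of all tested genes as lower. At an unadjusted p under 0.05, 5 of the 10 were higher and 0 lower, against 11.7% and 11.4% of all tested genes. At an adjusted p under 0.1 without a fold threshold, 3 of the 10 were higher and 0 lower, where all tested genes gave 3.78% and 3.89%. The groups did not overlap in 8 of the genes, with lactate higher in 5 and lower in 3, where 27.0% and 25.9% of all tested genes were so, and 3 of 10 is near the latter share. The median log2 fold change of lactate over control was 0.26 over the 10 genes and 0.01 over all tested genes.

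**Figure D1:**
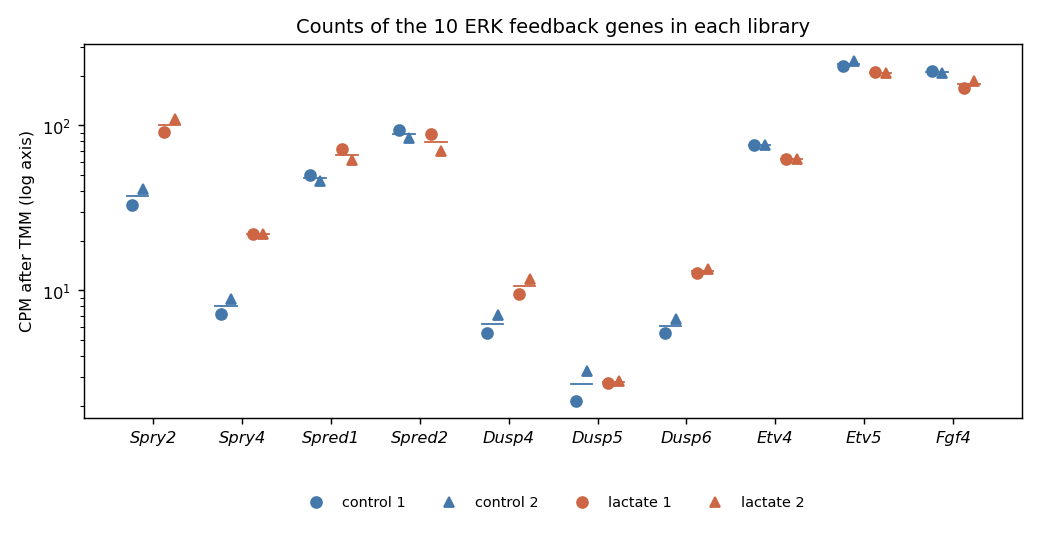
CPM of the 10 genes in each library on a log axis, with circles for the libraries numbered 1, triangles for those numbered 2, and a line at the mean of each group. The lactate libraries of Spry2 lie at 91.8 and 109.9 CPM, above its control libraries at 33.0 and 41.5 CPM, while the 2 groups of Dusp5 and of Spred2 overlap.

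Spry2 and Spry4 showed the largest changes of the 10. Spry2, on chromosome 14 (GRCm38, 105891947 to 105896819, minus strand), encodes an inhibitor that sits between the receptor and RAS, and its whole coding sequence lies in 1 exon. It had 33.0 and 41.5 CPM in the control libraries and 91.8 and 109.9 CPM in the lactate libraries. The lowest lactate library was thus more than 2-fold above the highest control library. Spry2 rose from 37.2 ± 6.02 to 101 ± 12.8 CPM (SD, n = 2), which is 1.44 ± 0.17 on the log2 scale (fitted change and its standard error, SE), with an adjusted p of 0.0406 (edgeR).

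Spry4, on chromosome 18 (38586247 to 38601415, minus strand), encodes a related inhibitor, also from 1 coding exon. It had 125 and 168 reads in control and 410 and 435 reads in lactate libraries, or 7.23 and 8.85 CPM in control and 22.06 and 22.05 CPM in lactate libraries. The lactate libraries were almost equal, and the groups lay far apart. The summed primitive endoderm markers were also higher with lactate, by a smaller margin, at 201 to 238 CPM in control and 304 to 315 CPM in lactate libraries. Their part in the rise of Spry2 and Spry4 was not tested. Spry4 rose from 8.04 ± 1.15 CPM by a log2 change of 1.45 (SE 0.18, adjusted p 0.0406, edgeR). With each library left out in turn, the log2 change ranged from 1.26 to 1.61 for Spry2 and from 1.30 to 1.60 for Spry4. DESeq2 called both genes, where it called 1.14% of all tested genes as higher. Without control replicate 1, which had the lower value of the 2 control libraries for both genes, they were at the low end of these ranges, and the adjusted p-values rose to 0.0652 for Spry2 and 0.0886 for Spry4, so neither was called. A library left alone in its group was assumed to vary like the other group.

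The SPRED proteins resemble Sprouty at their C-terminal end and bring neurofibromin, a brake on RAS, to the membrane. Spred1, on chromosome 2 (117121374 to 117182279), had 50.0 and 46.2 CPM in control and 71.8 and 61.5 CPM in lactate libraries. Both lactate libraries were above both control libraries. Its log2 change was 0.47 with an SE of 0.14, and its adjusted p of 0.131 (edgeR) did not pass. Spred2, on chromosome 11 (19924375 to 20024026), had 93.4 and 83.7 CPM in control and 88.6 and 69.9 CPM in lactate libraries. These groups overlapped, and the log2 change was −0.16 with an SE of 0.16.

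DUSP6 dephosphorylates ERK in the cytoplasm, whereas DUSP4 and DUSP5 act in the nucleus. Dusp6, on chromosome 10 (99263231 to 99267489), had 5.55 and 6.69 CPM in control and 12.7 and 13.4 CPM in lactate libraries. The lactate libraries were well above the control libraries. The log2 change of 1.09 (SE 0.19) was above 2-fold, but the adjusted p of 0.0553 (edgeR) missed the threshold. DESeq2 gave Dusp6 an adjusted p of 0.00790 and called it. Over the edgeR alternatives on counts with all 4 libraries, its adjusted p ranged from 1.79e-06 with a replicate block to 0.0677 with the RSEM expected counts.

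Dusp4, on chromosome 8 (34807297 to 34819894), had 5.49 and 7.12 CPM in control and 9.58 and 11.7 CPM in lactate libraries. The lactate libraries were higher without overlap, at a log2 change of 0.75 with an SE of 0.22 and an adjusted p of 0.124 (edgeR). Dusp5, on chromosome 19 (53529109 to 53542431), was the least abundant of the 10, with 37 and 62 reads in control and 51 and 56 reads in lactate libraries. Its groups overlapped and its log2 change was 0.04 with an SE of 0.28; this was the widest error of the 10 genes. An antisense gene overlaps an exon of Dusp5 but held only 1 to 5 reads per library. The plot of log2 changes shows this spread within the DUSP group.

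**Figure D2:**
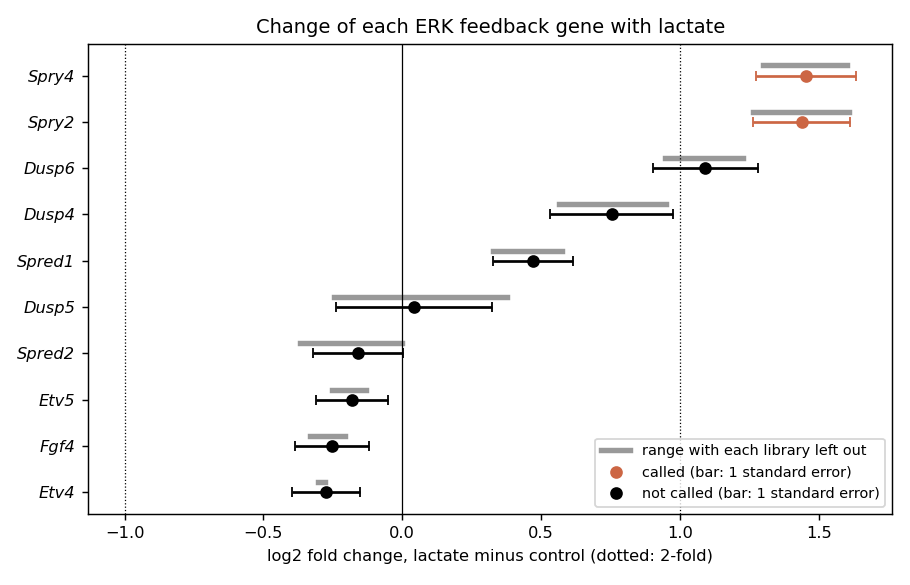
Log2 fold change of lactate against control for each of the 10 genes, with bars of 1 standard error, grey lines for the range over fits that each left out 1 library, and dotted lines at 2-fold. Spry4 (1.45) and Spry2 (1.44) are the called genes, Dusp6 (1.09) lies beyond 2-fold without being called, and Etv4 (−0.28) is the lowest.

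The transcription factor genes and the ligand gene had values slightly below 0 on the log2 scale, and none of them passed the main test. With a replicate block their adjusted p-values (edgeR) were 0.0015 for Etv4, 0.0194 for Etv5 and 0.0024 for Fgf4, all under 2-fold. In that fit 9547 of the 18661 tested genes had an unadjusted p under 0.05. Etv4, on chromosome 11 (101769742 to 101785371, minus strand), had 76.4 and 75.6 CPM in control and 62.8 CPM in each lactate library. Etv5, on chromosome 16 (22381309 to 22439719, minus strand), had 228 and 246 CPM in control and 211 and 207 CPM in lactate libraries. In both genes the lactate libraries were below the control libraries by a small margin. The log2 changes were −0.28 with an SE of 0.12 for Etv4 and −0.18 with an SE of 0.13 for Etv5, and the adjusted p-values of 0.243 and 0.453 (edgeR) did not pass.

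Fgf4, on chromosome 7 (144847367 to 144865243), encodes the main autocrine FGF of ESCs. It had 215 and 209 CPM in control and 169 and 187 CPM in lactate libraries. The lactate libraries were lower without overlap, with a log2 change of −0.25, an SE of 0.13 and an adjusted p of 0.310 (edgeR). Etv4, Etv5 and Fgf4 were lower with every scaling of the libraries that was tried. The difference between these Sprouty genes and the Etv genes was not tested.

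Promoter sequences were taken from RefSeq on GRCm38.p6, which has an entry for 7 of the 10 genes. The 250 bases before the annotated start are shown for Spry2 (chr14:105896820-105897069, minus strand), Dusp6 (chr10:99262981-99263230, plus strand) and Fgf4 (chr7:144861136-144861385, plus strand), since the first 2 genes had more than 2-fold higher counts with lactate and Fgf4 had lower ones. Capitals mark GGAA, the core that ETS factors such as ETV4 and ETV5 recognise, on either strand (GGAA or TTCC). Each promoter reads 5′ to 3′ towards its gene.
Spry2: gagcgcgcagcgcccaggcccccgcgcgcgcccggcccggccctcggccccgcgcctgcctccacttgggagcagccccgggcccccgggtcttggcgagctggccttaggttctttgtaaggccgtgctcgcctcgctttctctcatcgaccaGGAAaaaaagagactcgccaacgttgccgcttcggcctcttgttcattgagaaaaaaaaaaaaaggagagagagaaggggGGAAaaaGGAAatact
Dusp6: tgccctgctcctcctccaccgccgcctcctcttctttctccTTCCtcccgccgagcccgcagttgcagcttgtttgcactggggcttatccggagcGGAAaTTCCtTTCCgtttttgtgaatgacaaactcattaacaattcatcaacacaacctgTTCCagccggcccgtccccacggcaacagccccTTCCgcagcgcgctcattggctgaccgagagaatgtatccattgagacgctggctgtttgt
Fgf4: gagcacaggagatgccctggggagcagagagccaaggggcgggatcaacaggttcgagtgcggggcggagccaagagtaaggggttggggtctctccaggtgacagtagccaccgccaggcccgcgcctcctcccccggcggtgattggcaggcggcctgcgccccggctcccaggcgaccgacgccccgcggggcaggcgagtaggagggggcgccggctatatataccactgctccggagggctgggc
The core occurred 3 times in the Spry2 window, 6 times in the Dusp6 window and not at all in the Fgf4 window. Of all 32851 RefSeq promoter windows of this length, 93.4% held at least 1, with a median of 3 and quartiles of 2 and 4, so Spry2 lay at the median and Dusp6 above the upper quartile. Among the other genes with an entry, Spred2 had 7, Spred1 4, Dusp5 3, and the windows of 2 Etv5 starts had 0 and 4. The RefSeq start of Fgf4 lies inside the longer GENCODE gene given above. These matches describe the letters of the windows and say nothing about binding.

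Levels between genes were compared by TPM, which is scaled to transcript length. In control cells the order ran from Fgf4 (94.8 ± 1.59 TPM, SD, n = 2), Etv5 (93.5 ± 8.62) and Etv4 (65.2 ± 9.99) through Spred2 (33.0 ± 0.877), Spry2 (24.7 ± 5.16) and Spred1 (12.1 ± 0.262) to Dusp6 (4.40 ± 1.64), Dusp4 (3.35 ± 0.778), Spry4 (2.37 ± 0.290) and Dusp5 (1.82 ± 0.714). The ranges of Fgf4 and Etv5, of Dusp6 and Dusp4, and of Spry4 and Dusp5 overlapped, and the other neighbours were apart. The ligand and the Etv genes were thus the highest of the 10 in the presence of the MEK inhibitor, and the phosphatase genes and Spry4 were near the lower end.

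With lactate, Spry2 moved from the fifth to the third place. It reached 70.5 ± 7.56 TPM, above Etv4 at 51.0 ± 3.11 TPM, and the ranges of 65.13 to 75.82 and 48.75 to 53.15 TPM did not overlap. In control libraries Etv4, at 58.10 to 72.23 TPM, had been above Spry2, at 21.09 to 28.39 TPM. Spry4 went from 2.37 to 7.39 ± 0.113 TPM and passed Dusp4, at 6.06 ± 0.863 TPM. Over all 4 libraries, 4 of the 9 pairs of neighbours in the order had ranges that did not overlap, in TPM as in FPKM. The TPM of Etv4 rests on a mean transcript length that RSEM set at 1526 bases in control replicate 1 and at 1751 to 1930 bases in the other libraries, so its value of 72.23 TPM there came from 988 expected counts, fewer than the 1141 behind 58.10 TPM in control replicate 2.

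**Figure D3:**
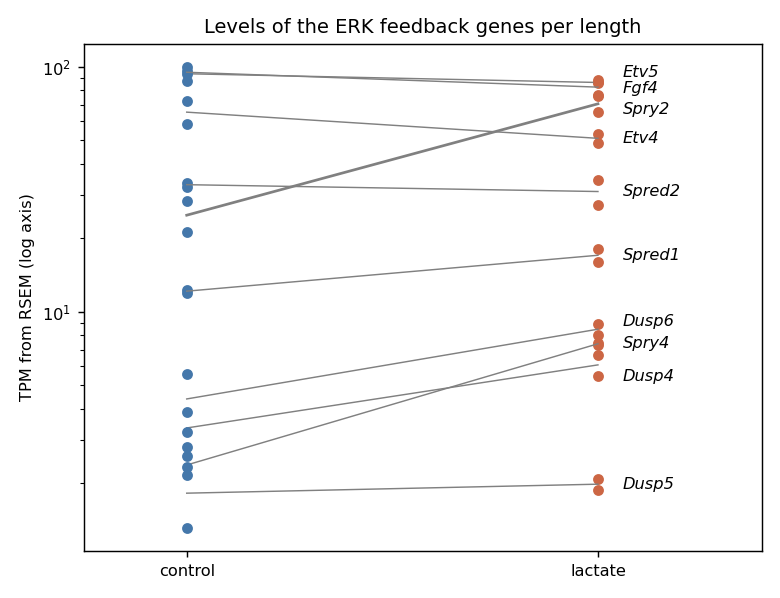
TPM of the 10 genes on a log axis, with a point for each library and a line between the means of the control and lactate groups. The line of Spry2 climbs from 24.7 to 70.5 TPM and crosses that of Etv4, while Fgf4 and Etv5 stay at the top in both groups.

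The close relatives of the 10 genes gave no call with all 4 libraries. Of the other Sprouty, SPRED, Etv and DUSP genes of the same families, 9 of the 10 found in the tables were tested and 0 were called in either direction by edgeR or DESeq2, with 2 higher and 2 lower at an unadjusted p under 0.05, where all tested genes gave 11.7% and 11.4%. Spry1, the remaining Sprouty gene tested, was singled out after its value was seen. It had 9.71 and 13.0 CPM in control and 12.05 and 12.6 CPM in lactate libraries, so its groups overlapped, and its log2 change was 0.12 with an SE of 0.20. Spred3 and Dusp8 had log2 changes of 0.85 and 0.69 with SEs of 0.23 and 0.25, and without lactate replicate 2 Spred3 was called, at 1.08. Dusp9, an ERK phosphatase gene active in ESCs, had 104 and 108 CPM in control and 61.8 and 65.7 CPM in lactate libraries, a log2 change of −0.73 with an adjusted p of 0.0543 (edgeR). Dusp1, an immediate early phosphatase gene, had −0.53. Dusp9 and Dusp6 thus had values in opposite directions.

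Of other genes that ERK is known to induce, 1 of the 11 tested was called as higher and 0 as lower by edgeR. All tested genes gave 0.552% and 0.348%. At an unadjusted p under 0.05 (edgeR), 2 of the 11 were higher and 2 lower, against 11.7% and 11.4% of all tested genes. Epha4, an ephrin receptor gene on the list of ERK outputs, had 118 and 123 CPM in control and 268 and 241 CPM in lactate libraries. The groups were far apart. Epha4 rose by a log2 change of 1.08 (SE 0.13, adjusted p 0.0406, edgeR). With all 4 libraries this call was lost with the RSEM expected counts (adjusted p 0.0525, edgeR) and with limma-trend, which called 0 genes. It was also lost without control replicate 1 (log2 change 1.03). Without lactate replicate 1 the log2 change of 0.97 was below the fold threshold. Fos, the immediate early AP-1 gene, had 13.0 and 35.3 CPM in control and 2.58 and 3.09 CPM in lactate libraries. Its log2 change was −3.08 with an SE of 0.50 and an adjusted p of 0.0520 (edgeR), and it was called in each fit that left out 1 library. DESeq2 called it as lower too, as it did 0.868% of all tested genes. The size rests in part on control replicate 2, without which the log2 change was −2.19. The cyclin D1 gene Ccnd1 had a log2 change of −0.74 with an adjusted p of 0.0543 (edgeR), and Myc had 0.64 with an adjusted p of 0.185.

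The other FGF family genes and the genes upstream of ERK gave no call by edgeR or DESeq2 after the filter on low counts. With no filter, edgeR called Fgf17, Fgf13 and Klb as lower, and without lactate replicate 2 it called Fgf17 and Klb. With a replicate block it called these 3 as lower and Fgf1 as higher. Over all the pathway lists, the fit with no filter also called 2 genes as higher, Epha4 among them. At an unadjusted p under 0.05, 1 of 10 tested FGF family genes was higher and 3 were lower, against 11.7% and 11.4% of all tested genes. By the same measure 1 of 6 receptor genes was higher and 2 were lower, and 0 of 19 genes of the cascade were higher and 4 lower. Of 21 other FGF family genes, 10 were tested. Not all of these genes encode ligands of FGF receptors, and Fgf13 is among those that do not. Fgf17 and Fgf13 had log2 changes of −1.02 and −1.13 with adjusted p-values of 0.0691 and 0.112 (edgeR), while Fgf1 and Fgf15 had 1.03 and 0.74. All 4 were at low levels, below 7 CPM in every library. Among the receptors and co-receptors, 6 of 7 were tested. Fgfr1, the main FGF receptor gene of ESCs, had 147 and 154 CPM in control and 122 and 114 CPM in lactate libraries, a log2 change of −0.35 with an SE of 0.13 and an adjusted p of 0.175 (edgeR). Fgfr2, the receptor gene of primitive endoderm, had 0.44, the co-receptor gene Klb −1.05 and Fgfr4 0.01.

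All 19 genes for adaptors, RAS, RAF, MEK and ERK were tested, with a median log2 change of −0.02 and a range from −0.84 to 0.36. The lowest unadjusted p-values were those of the adaptor gene Shc1 (−0.61, adjusted p 0.0841, edgeR) and the scaffold gene Ksr1 (−0.49), and on the higher side of Araf (0.31) and Nras (0.30). Of 7 further brakes on RAS and the receptors, Rasa3, a RAS GTPase-activating protein gene, had 0.45 and Nf1, which encodes neurofibromin, 0.32, against −0.31 for Lztr1 and −0.20 for Cbl, and 1 was higher and 0 were lower at an unadjusted p under 0.05. The 11 nuclear and kinase effectors also gave no call by edgeR or DESeq2, with 2 higher and 4 lower at an unadjusted p under 0.05. By this measure 11.7% of all tested genes were higher and 11.4% lower, which is the scale for the brakes as well. Cic, which encodes a repressor that keeps Etv and Dusp genes silent until ERK removes it, had 280 and 259 CPM in control and 196 and 181 CPM in lactate libraries. Its log2 change of −0.52 had an SE of 0.13 and an adjusted p of 0.1005 (edgeR). Atxn1l, which encodes a partner of CIC, had 0.63. The genes of 2 RSK kinases, which ERK activates, differed in sign, with 0.79 for Rps6ka2 (adjusted p 0.0526) and −0.56 for Rps6ka1 (adjusted p 0.0918).

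**Figure D4:**
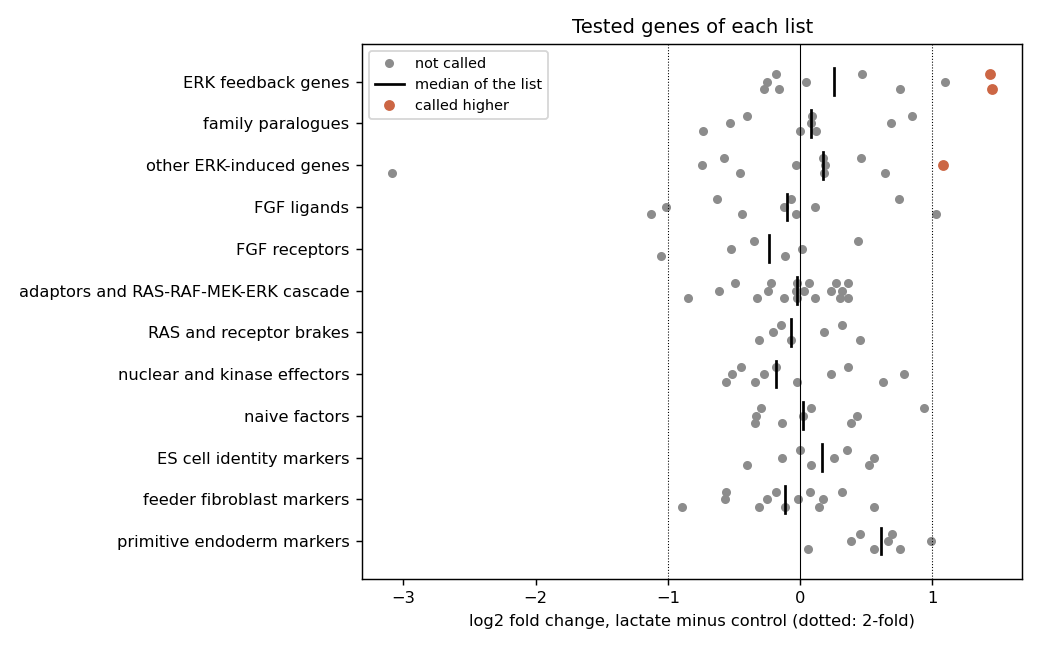
Log2 fold changes of the tested genes of each list, with a black line at the median of the list, orange points for called genes and dotted lines at 2-fold. The called genes are Spry2, Spry4 and Epha4, and the lowest point, at −3.08, is Fos.

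The transcription factors of the naive state gave no call by edgeR or DESeq2 in 9 genes tested, with 3 higher and 2 lower at an unadjusted p under 0.05. By this measure 11.7% of all tested genes were higher and 11.4% lower, which is the scale for the marker lists below as well. Tbx3 and Klf4 had log2 changes of 0.43 and 0.39, and Prdm14 and Klf2 had −0.33 and −0.34. The largest change of this list was that of Klf5, at 0.93 with an SE of 0.34, a gene named after its value was seen. Of the ESC markers, Sox2 and Zfp42 had 0.56 and 0.52, Pou5f1 −0.40 and Esrrb −0.14, with no call by edgeR or DESeq2 and 2 higher at an unadjusted p under 0.05. In the primitive endoderm list, 8 of 10 markers were tested. Without overlap, 7 were higher with lactate and 0 lower, where 27.0% and 25.9% of all tested genes were so. No marker was called by either tool, and 3 were higher at an unadjusted p under 0.05, against 11.7% of all tested genes. Lama1, which made up 57.6% of the list's sum in control and 66.1% in lactate libraries, had a log2 change of 0.69 (adjusted p 0.0684, edgeR), and Pdgfra had 0.99, or 1.19 without lactate replicate 2, where it was called. Gata4 and Gata6, 2 defining factors of the lineage chosen for mention after their values were seen, were at 44 to 79 and 22 to 34 reads per library. Of 13 tested feeder markers, 1 was higher and 3 were lower without overlap, against the same 27.0% and 25.9%. Pdgfrb had 0.56 and Twist1 0.31, and Col3a1 and Prrx1 had −0.90 and −0.57, with no call by edgeR or DESeq2, and 1 higher and 2 lower at an unadjusted p under 0.05. Without lactate replicate 2, Col3a1 was called, at −1.18.

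The mean profile of the 10 genes, centred on each gene's mean over the 4 libraries, was −0.30 and −0.14 in control and 0.21 and 0.23 in lactate libraries on the log2 CPM scale. Of 10213 other tested genes with a mean of at least 10 CPM, the 5 with the smallest Euclidean distance to it were Fam126a, Spin1, Spata13, Focad and Slc16a9, at distances of 0.02 to 0.04 and with log2 changes of 0.41 to 0.44. As the 10 genes themselves ranged from −0.28 to 1.45, this mean describes few of them.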

How the data were processed

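RNA-seq libraries of AB2.2 mouse ESCs were compared, 2 of control and 2 of lactate-treated cells, grouped by the treatment label. Per the labels and the methods, the authors trimmed reads with cutadapt 1.16, mapped them with STAR to mm10 and deposited raw counts per gene in exons of GENCODE M23, without normalization. The RSEM tables that the authors deposited for each library hold TPM, FPKM and expected counts. Rows of transposable element families in the count table were left out. The use of strand in counting is not given in the sources used here.

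The counts were tested in R 4.3.3 with edgeR 4.0.16 (filterByExpr, TMM, quasi-likelihood test in its legacy form, Benjamini-Hochberg adjustment over 18661 genes). CPM are scaled by TMM. A standard error is the log2 fold change divided by the square root of F. The common biological coefficient of variation was 15.9%, and replicate libraries differed beyond counting noise (35.9 and 35.2 for chi-square over its degrees of freedom). Alternatives were DESeq2 1.42.0, other scalings and filters, a replicate block, rounded RSEM expected counts, limma 3.58.1 (limma-trend on log2 FPKM with a pseudocount of 1 or 0.1, mean FPKM above 0.1), and each library left out. Scripts were tested on simulated data.

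The 10 genes and the other lists were chosen with earlier results of these data known. Besides the 10, each list's called genes and its 2 higher and 2 lower tested genes with the smallest p-values are named, with the 5 genes nearest in profile. Positions come from GENCODE M21 on GRCm38, where all 10 identifiers have the same version. Spry3 was listed but not used here. ChIP-seq and qRT-PCR were not analysed here.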

Additional observations from a re-analysis of the deposited data

How the results depend on the processing

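With 2 libraries a group, the calls changed with the method. Spry2, Spry4, Dusp6, Dusp4 and Spred1 were higher, and Spred2, Etv4, Etv5 and Fgf4 lower, under all 15 alternatives. The number of the 10 genes called as higher fell from 2 to 1 with the RSEM expected counts, where Spry2 had an adjusted p-value of 0.0525, and to 0 with limma-trend at either pseudocount, where no gene of the whole table was called and 5 of the 10 were higher at an unadjusted p-value under 0.05. It ranged from 0 (without control replicate 1) to 3 with each library left out. The median log2 fold change of the 10 genes then ranged from 0.18 to 0.39. No alternative called any of them as lower.

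Same-numbered libraries shared only a number in the labels, and their deviations from the group means correlated at 0.56 over all tested genes, 0.81 over those with a mean of at least 10 CPM and 0.64 over the 10 genes. With the replicate block 3 of the 10 genes were called as higher, Dusp6 in addition, as with DESeq2 and with no filter on low counts. Under the block 4 were lower at an unadjusted p-value under 0.05 without reaching 2-fold. Their adjusted p-values (edgeR) were also under 0.05, at 0.0015 for Etv4, 0.0024 for Fgf4, 0.0194 for Etv5 and 0.0423 for Spred2. Dusp4 (0.000141) and Spred1 (1.41e-05) were higher, likewise under 2-fold. Of the 18661 tested genes, 9547 had an unadjusted p-value under 0.05 in this fit. Among all tested genes 761 were called as higher and 395 as lower under the block, against 103 and 65 without it. In the pathway lists the block gave 2 genes called as higher and 4 as lower, as did the fit with no filter on low counts, against 1 and 0. Those of the block were Epha4 and Fgf1 (1.03, adjusted p-value 0.0162), and Fos, Fgf17 (−1.02, 9.92e-05), Fgf13 (−1.13, 0.00208) and Klb (−1.05, 0.000563). The RSEM expected counts and both limma-trend fits called 0 genes there as higher, DESeq2 called 1 as lower, and leaving out each library gave 0 to 3 higher and 1 to 4 lower. Over the whole table DESeq2 called 213 and 162 genes, the fit with no filter 482 and 325, and the RSEM expected counts 27 and 17.

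Values near 0 changed sign. Dusp5 was at −0.0017 on the log2 scale with no filter and between −0.24 and 0.38 with each library left out. Fgfr4 was at −0.031 with no filter and between −0.19 and 0.16 with each library left out. Cbl was at 0.17 and 0.18 under limma-trend with a pseudocount of 1 and 0.1. The cause of these differences was not tested. Counts under 100 reads per library, as for Dusp5, limit what could be detected.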

Other observations

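Fgf21, which encodes an endocrine FGF made under nutrient stress, had too few reads for the main test and was named after its values were seen. No read of it was counted in control libraries, against 8 and 14 in the lactate libraries. Its co-receptor gene Klb had 5.20 and 4.32 CPM in control and 1.83 and 2.74 CPM in lactate libraries. The edgeR fit with no filter covered all 32923 genes with a read, Fgf21 among them. That fit called 2 genes of the pathway lists as higher, Epha4 and another that is not named here. The result of Fgf21 in it is not given here.

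RSEM gave Dusp6, which has 4 annotated transcripts of 758 to 2796 bases, a mean transcript length of 1985 bases in control replicate 2 and of 2460 to 2629 bases in the other libraries, so that its TPM in that library stood nearer to the lactate libraries than its counts did.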
